A study of Homo sapiens with 8 samples.

Results

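The genes described here had more signal on both arrays of MCF-10F than on both arrays of its estradiol-transformed derivative trMCF clone 11. That difference remained after the clone had been kept in all-trans retinoic acid (ATRA) at either dose. The genes were chosen by their values on these same arrays. A gene was kept when its lower MCF-10F array exceeded the highest of the 6 other arrays by 1 or more on the log2 scale, which is a fold of 2, and its MCF-10F mean was 6 or more. The difference between these arrays is called the gap below, and the rule sets no upper level for the other arrays. Of 19775 genes with a probe set of their own, 11202 reached the level of 6 in MCF-10F, and 134 of these are the members. Another 8 genes met both thresholds and were left out by name (COL1A2, COL8A1, EDIL3, FN1, POSTN, SRPX, TRIM22 and VIM). Among the members, 129 code for proteins, 2 are long noncoding RNAs and 3 are transcribed pseudogenes.

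RNA was measured on 8 Affymetrix U133 Plus 2.0 arrays, 2 in each of 4 groups. MCF-10F is a spontaneously immortalized, normal-like human breast epithelial line, and trMCF clone 11 is 1 ring-cloned population from MCF-10F cells that had been given a high dose of estradiol, so it stands for a single clone of the transformed cells. In the other groups the same clone had been grown with ATRA for 26 days, at a dose of 1 μM or of 10 μM. The labels name DMSO as the vehicle of the controls without saying whether the clone arrays hold cells given it, and separate cultures are not stated for the arrays of any group. The p-values below therefore measure the spread between arrays, which may be technical. The label of trMCF clone 11 replicate 1 carries the tag normal against its own title, and the array was grouped by title. The trMCF clone 11 arrays stood apart from each other: 11.7% of the genes at 6 or more in MCF-10F differed by more than 1 between them. That share was 5.84% for the MCF-10F arrays and 0.134% and 0.205% for those of the lower and higher dose. Epithelial markers were at 6 or more on every array for 9 of 10 genes, with EPCAM, an epithelial adhesion molecule, between 12.23 and 12.96. The exception was KRT14, a basal keratin, at 13.16 and 10.38 in MCF-10F, 11.66 and 12.15 in the clone, 7.73 and 6.86 at 1 μM and 5.40 and 5.09 at 10 μM.

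Mammary epithelial cells lay down and remodel their own matrix, attract leukocytes with chemokines, and hold together through cadherins. Lines grown in plastic dishes, MCF-10F among them, often also express genes better known from mesenchymal cells. ATRA acts through nuclear retinoic acid receptors that sit on response elements in DNA and switch from holding a gene silent to activating it when the ligand binds. In RNA from a whole culture, fewer cells that express a gene and less RNA in each cell cannot be told apart.

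The members include 6 genes of the CXC chemokine cluster on chromosome 4, which encodes small secreted proteins that attract leukocytes, and the windows around the starts of 4 of them are shown because they hold a stretch of letters that is rare elsewhere. Each window covers 250 bases before and 50 bases after the start of the gene (RefSeq, GRCh38.p14), read 5′ to 3′ on the strand of the gene. CXCL8 lies at chr4:73740319-73740618 (+), CXCL6 at chr4:73836428-73836727 (+), CXCL1 at chr4:73869143-73869442 (+) and CXCL5 at chr4:73998628-73998927 (-). Capitals mark GGAATTTCC, a form of the NF-κB motif, and in CXCL8 also TGANTCA, the AP-1 motif.
CXCL8: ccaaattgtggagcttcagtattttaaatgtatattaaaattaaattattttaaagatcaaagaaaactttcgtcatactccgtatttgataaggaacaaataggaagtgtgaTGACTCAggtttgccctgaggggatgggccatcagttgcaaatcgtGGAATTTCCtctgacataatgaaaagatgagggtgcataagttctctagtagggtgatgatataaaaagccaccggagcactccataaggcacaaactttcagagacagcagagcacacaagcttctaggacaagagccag
CXCL6: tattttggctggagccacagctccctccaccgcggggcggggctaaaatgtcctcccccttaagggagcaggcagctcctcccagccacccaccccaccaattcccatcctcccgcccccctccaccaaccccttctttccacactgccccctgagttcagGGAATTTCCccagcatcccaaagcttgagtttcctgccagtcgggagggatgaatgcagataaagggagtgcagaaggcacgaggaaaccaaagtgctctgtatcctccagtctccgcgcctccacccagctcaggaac
CXCL1: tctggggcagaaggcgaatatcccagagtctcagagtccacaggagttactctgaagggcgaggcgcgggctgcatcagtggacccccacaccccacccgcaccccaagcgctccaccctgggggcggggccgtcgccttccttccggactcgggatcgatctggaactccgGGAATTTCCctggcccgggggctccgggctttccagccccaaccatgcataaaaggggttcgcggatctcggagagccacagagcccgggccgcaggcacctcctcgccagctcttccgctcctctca
CXCL5: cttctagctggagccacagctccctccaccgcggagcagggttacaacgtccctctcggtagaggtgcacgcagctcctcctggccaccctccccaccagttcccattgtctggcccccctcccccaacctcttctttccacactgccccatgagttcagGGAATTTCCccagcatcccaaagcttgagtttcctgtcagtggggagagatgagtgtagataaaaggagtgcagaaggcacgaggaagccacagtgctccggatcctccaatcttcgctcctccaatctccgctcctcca
The letters GGAATTTCC began 91 bases before the start in CXCL8, 89 in CXCL6, 78 in CXCL1 and 90 in CXCL5. The motif was chosen after the members were known, both strands were searched, and it does not overlap the AP-1 match. It was found in 4 of the 105 member windows, these 4, and in 71 of 15384 windows over all genes, which is 0.462%. Whether the 71 include CXC genes that are not members, such as CXCL2 and CXCL3, is not given here. The CXCL6 and CXCL5 windows shared 248 of 299 bases at a shift of 1 base, or 82.9%, and are thus near copies. The window of PPBP, another member of the cluster, held no match.

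The members lost most of their signal in the clone and stayed near the clone with ATRA. The median gap was 1.48, with 33 members at 2 or more and 11 at 3 or more. The median difference from MCF-10F was -2.54 in trMCF clone 11, -2.26 at 1 μM ATRA and -2.44 at 10 μM ATRA, and it ranged from -5.47 to -1.24 in the clone. MCF-10F means ran from 6.00 to 13.96 with a median of 8.34, so that dim and bright genes are both present. In 23 members the clone mean was under a signal of 16 (4 on the log2 scale), near background, and in 8 all 6 other arrays were. The size of the loss of those genes is uncertain. These differences chose the members and are given without a test.

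**Figure D1:**
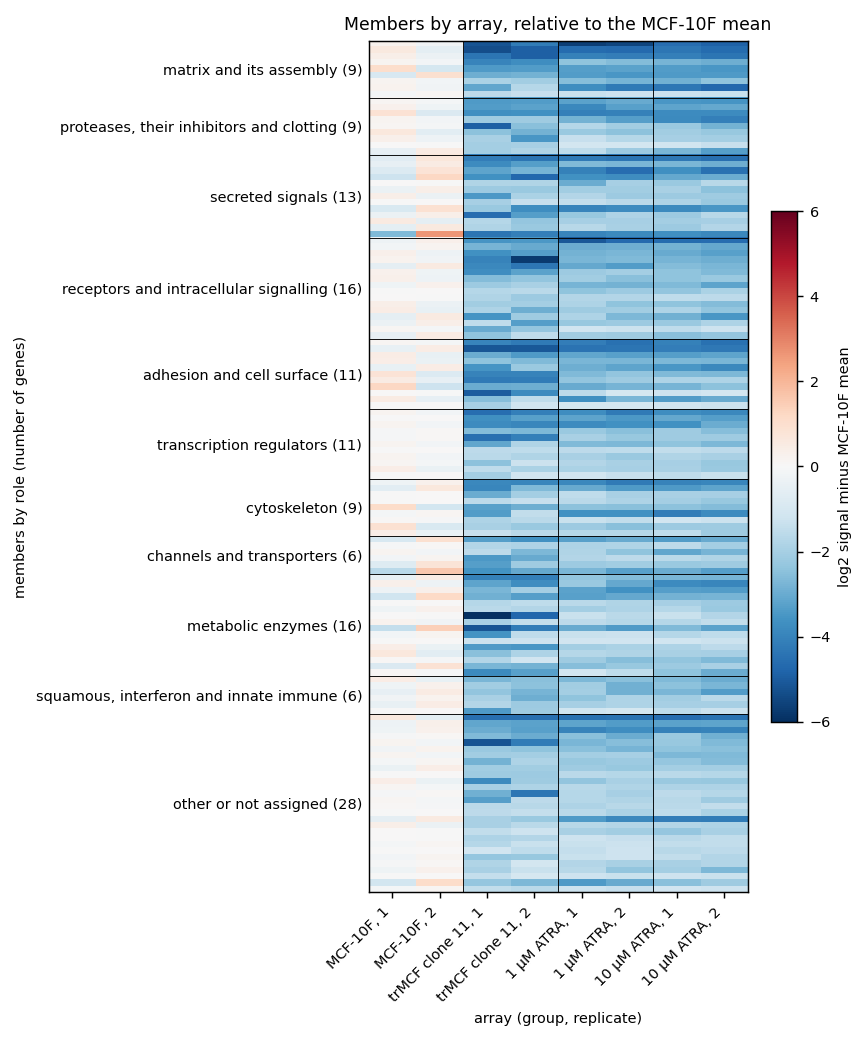
Log2 signal of the 134 members on each of the 8 arrays, as the difference from the MCF-10F mean of the gene, with genes in rows grouped by role and arrays in columns. All 6 columns of the clone, with and without ATRA, are below the MCF-10F columns, as the rule requires, and the pale rows in the ATRA columns are genes such as TIGAR that came part of the way back.

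The share of the loss that ATRA gave back was taken as the ATRA mean minus the clone mean, as a percentage of the MCF-10F mean minus the clone mean. Its median was 4.94% at 1 μM and 2.90% at 10 μM. It exceeded 50% in 6 members at 1 μM and in 7 at 10 μM, 3 of them at both doses, and was below 0 in 49 and 60 members. The rule caps it, since no member could come nearer than 1 to its lower MCF-10F array. The highest of the 6 other arrays was an ATRA array for 81 members and a trMCF clone 11 array for 53. Each dose and the clone had 2 arrays, so ATRA arrays outnumbered clone arrays in this count. Array by array it was 24 and 29 for the clone, 25 and 19 at 1 μM and 23 and 14 at 10 μM.

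The 12 largest gaps belonged to SRGN, NLGN4X, CEP15, FBN1, CEACAM6, SPOCK1, WASF3, IRX1, PPBP, IRS1, GLIS3 and PRSS3. SRGN encodes serglycin, a proteoglycan of secretory granules. Its log2 signal was 11.99 and 11.61 on the MCF-10F arrays, 6.63 and 7.61 in trMCF clone 11, 6.15 and 6.32 at 1 μM and 7.21 and 6.96 at 10 μM. The gap of 4.0 was the largest of all, and the MCF-10F mean was 25.7-fold above the clone. NLGN4X, an X-linked postsynaptic adhesion protein, read 7.61 and 7.33 in MCF-10F and between 2.99 and 3.49 on the other 6 arrays. CEACAM6, a carcinoembryonic antigen family protein of the cell surface, read 9.76 and 10.68 in MCF-10F, 5.07 and 5.13 in the clone, 5.78 and 5.84 at 1 μM and 6.05 and 5.92 at 10 μM. Its ATRA arrays all lay above both clone arrays and far under MCF-10F, giving back 13.8% and 17.2% of the loss. Neither difference of CEACAM6 from the clone passed the test described below (adjusted p = 0.287 and 0.118, limma).

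WASF3, an actin regulator of the WAVE family, IRX1, a homeobox factor, and GLIS3, a zinc finger factor, showed the same on-off pattern. WASF3 was at 7.13 and 7.65 in MCF-10F and between 3.13 and 3.54 elsewhere. IRX1 was at 8.19 and 7.85 in MCF-10F and between 3.43 and 4.28 elsewhere. These genes sat at or near a signal of 16 on every array of the clone. CEP15, a centrosomal protein gene, was at 8.46 and 7.28 in MCF-10F and between 3.32 and 3.46 on the other arrays. IRS1, the docking protein below the insulin and IGF-1 receptors, differed from these in that the clone kept part of its level: 9.92 and 10.55 in MCF-10F, 6.69 and 6.80 in the clone, 5.14 and 5.58 at 1 μM and 5.60 and 5.65 at 10 μM. PRSS3, a trypsinogen, read 9.14 and 8.93 in MCF-10F and between 5.49 and 6.00 elsewhere, on a probe set that shares targets with other genes.

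**Figure D2:**
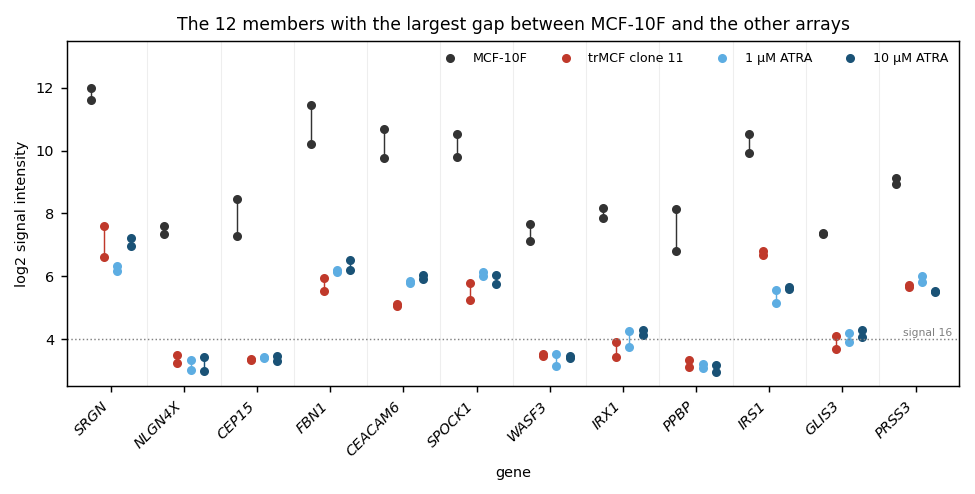
Log2 signal of the 12 members with the largest gap, 1 point per array and a line joining the 2 arrays of a group, for MCF-10F, trMCF clone 11, 1 μM ATRA and 10 μM ATRA. The dotted line marks a signal of 16. SRGN, at 11.99 and 11.61 in MCF-10F, has no other array above 7.61, and NLGN4X, CEP15, WASF3 and PPBP stay under the dotted line on all 6 other arrays.

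Roles were given to the members from general knowledge after they were known. The matrix group of 9 genes had the largest median gap, 2.15. FBN1, the microfibril protein fibrillin-1, read 11.44 and 10.23 in MCF-10F, 5.53 and 5.95 in the clone, 6.20 and 6.15 at 1 μM and 6.51 and 6.20 at 10 μM. That was a 34.2-fold loss in the clone, and the gene remained 25.3-fold and 22.3-fold below MCF-10F at the 2 doses. SPOCK1, the proteoglycan testican-1, read 10.53 and 9.80 in MCF-10F and between 5.26 and 6.12 elsewhere. TNFAIP6, a hyaluronan-binding protein of inflammation, read 7.43 and 9.31 in MCF-10F and between 4.87 and 5.52 elsewhere, while MATN2, a filament-forming matrix adaptor, read 6.65 and 6.33 and between 3.63 and 4.57. HAS2, a hyaluronan synthase, VCAN, the large proteoglycan versican, CCBE1, a matrix protein of lymphatic growth, and PLOD2, a lysyl hydroxylase that readies collagen for cross-linking, complete the group with SRGN.

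Among the 9 genes of proteolysis and clotting, SERPINE2, an inhibitor of thrombin and plasminogen activators, was the brightest at 13.22 and 12.70 in MCF-10F against 9.07 to 9.90 on the other arrays. PRSS23, a serine protease, read 11.04 and 9.28 against 6.05 to 6.54. PLAT, tissue plasminogen activator and the only member on the list of retinoid targets, read 8.27 and 9.29 in MCF-10F, 6.75 and 6.97 in the clone, 7.24 and 6.58 at 1 μM and 6.03 and 5.49 at 10 μM. The clone and 1 μM arrays of PLAT overlap, and the 10 μM arrays lie below both. F3, tissue factor, the cell-surface trigger of clotting, read 12.80 and 12.60 in MCF-10F, 7.82 and 10.18 in the clone, 10.99 and 10.63 at 1 μM and 10.49 and 9.85 at 10 μM. The clone arrays of F3 differed by 2.37, the most of any member, and 1 array at 10 μM lay between them.

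The secreted signals hold 13 members, 6 of which are the CXC genes. CXCL8, or interleukin-8, read 10.34 and 12.79 in MCF-10F, 7.95 and 6.83 in the clone, 7.95 and 7.84 at 1 μM and 8.50 and 8.58 at 10 μM. CXCL1 read 10.87 and 12.69 in MCF-10F, 9.57 and 8.04 in the clone, 7.82 and 8.02 at 1 μM and 7.98 and 8.27 at 10 μM. CXCL5 read 11.29 and 12.29 in MCF-10F, 8.04 and 8.50 in the clone, 9.13 and 9.07 at 1 μM and 9.06 and 8.84 at 10 μM. All 3 encode chemokines that act on the neutrophil receptor CXCR2. PPBP, better known from platelets, read 6.82 and 8.15 in MCF-10F and between 2.95 and 3.33 elsewhere. PF4, platelet factor 4, read 8.60 and 7.52 in MCF-10F and between 5.76 and 6.37 elsewhere. The probe sets of PF4, CXCL8, CXCL5 and PPBP carry suffixes that mark shared targets. CXCL6 read 4.78 and 10.09 in MCF-10F, a difference of 5.30 between arrays of 1 group, and between 3.04 and 3.75 elsewhere, and its gap of 1.04 is set by replicate 1.

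In the order of the reference, CXCL8 and CXCL6 are neighbours, as are CXCL1, PF4, PPBP and CXCL5. PF4V1, which lies between these runs, held a gap of 1.17 and missed the level of 6. The other CXC genes of the locus did not hold the gap: it was 0.45 for CXCL3 and -0.12 for CXCL2, whose highest other array exceeded the lower MCF-10F array. CXCL9, CXCL10, CXCL11 and CXCL13, the interferon-linked and B-cell attracting genes, read under 6 on every array. MCF-10F replicate 2 was above replicate 1 for 5 of the 6 member genes and below it for PF4.

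**Figure D3:**
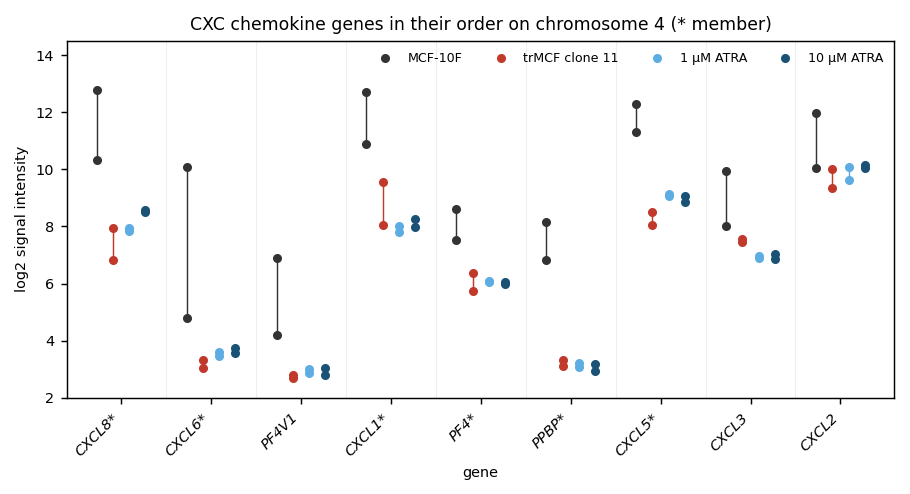
Log2 signal of the CXC chemokine genes in their order on chromosome 4, 1 point per array and a line joining the 2 arrays of a group, with an asterisk on each member. MCF-10F arrays lie above all others for the 6 members, PF4V1 and, by less than 1, CXCL3. They are far apart for CXCL6 (4.78 and 10.09), and those of CXCL2 overlap the other groups.

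Outside the cluster, WNT5A, a ligand of noncanonical Wnt signalling, read 10.97 and 10.30 in MCF-10F, 7.20 and 8.74 in the clone, 8.88 and 8.45 at 1 μM and 8.45 and 8.53 at 10 μM. Here the ATRA arrays spanned the higher clone array and stayed more than 1 under MCF-10F. Adhesion and surface genes numbered 11. PCDHB2, a clustered protocadherin, read 7.41 and 6.64 in MCF-10F and between 4.27 and 4.62 elsewhere, and PCDH9, another protocadherin, 8.65 and 6.17 against 4.37 to 4.97. In the cytoskeleton group of 9, MAP1B, a microtubule-associated protein, read 8.40 and 6.23 against 4.03 to 4.87, and MYLK, myosin light chain kinase, 8.15 and 6.32 against 4.74 to 5.29. The MCF-10F arrays of PCDH9, MAP1B and MYLK were more than 1 apart.

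Transcription regulators numbered 11. PRRX1, a mesenchymal homeobox factor, was dim at 6.18 and 5.82 in MCF-10F against 3.77 to 4.40, and TBX3, a T-box factor of mammary development, read 7.85 and 7.90 against 6.28 to 6.40, a narrow range over all 6 arrays of the clone. IFI44L was the only member among the interferon response genes, with TRIM22 left out by name. IFI44L read 7.78 and 8.21 in MCF-10F, 6.06 and 5.04 in the clone, 5.58 and 6.17 at 1 μM and 5.93 and 6.39 at 10 μM. The ATRA arrays of IFI44L overlap those of the clone.

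Whether ATRA changed the members was tested against trMCF clone 11. The rule set 1 ceiling over the clone and ATRA arrays together, so the values tested here took part in the choice of members. A gene that ATRA brought within 1 of its lower MCF-10F array was left out beforehand, which limits the rises that can be seen. The difference between the clone and ATRA arrays was not itself used by the rule. limma's moderated test was fitted over all probe sets with Benjamini-Hochberg adjustment, and a gene is said to have risen or fallen when its adjusted p was under 0.05. At 1 μM, 7 of 134 members rose (5.22%), against 0.971% of all genes higher, and 0 fell, against 0.925% of all genes lower. At 10 μM, 13 rose (9.70%) and 6 fell (4.48%), against 3.94% and 3.89% of all genes. In all, 14 members rose at 1 dose or both, 6 of them at both, 6 fell at 10 μM, and 114 passed at neither. Since clone and ATRA levels were both bounded by the rule, these shares are not a result about the members as a set. The fit pools the spread of a gene over all its groups, so a wide spread in MCF-10F enters these tests too. CXCL6, at 4.78 and 10.09 in MCF-10F, had an SE of 1.55 at 1 μM. A member that did not pass may thus still have changed. The median change over the 134 was 0.11 at 1 μM, where all genes had -0.06, and 0.06 at 10 μM, where all genes had -0.01.

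These counts rested on few arrays. Leaving out either array of the dose tested left 0 calls in each direction. Without trMCF clone 11 replicate 1, 7 rose and 2 fell at 1 μM and 14 rose and 5 fell at 10 μM. Without trMCF clone 11 replicate 2, 23 rose and 0 fell at 1 μM and 26 rose and 5 fell at 10 μM. Without replicate 1 the median change at 10 μM was -0.01.

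TIGAR, a p53-induced phosphatase that slows glycolysis, rose the most. It read 9.84 and 9.82 in MCF-10F, 3.62 and 5.09 in trMCF clone 11, 8.48 and 8.22 at 1 μM and 8.51 and 8.08 at 10 μM. All ATRA arrays lay above both clone arrays and under both MCF-10F arrays. The change was 3.99 ± 0.46 (SE, adjusted p = 0.0281, limma) at 1 μM and 3.93 ± 0.43 (adjusted p = 0.00662) at 10 μM, giving back 73.0% and 71.9% of the loss. TSPAN12, a tetraspanin that assists Frizzled-4 signalling, read 8.21 and 8.13 in MCF-10F, 3.17 and 4.39 in the clone, 6.59 and 7.12 at 1 μM and 6.94 and 7.07 at 10 μM, a change of 3.07 ± 0.41 (adjusted p = 0.0392, limma) and 3.22 ± 0.37 (adjusted p = 0.00771). Its 2 other measured probe sets did not pass at either dose, with differences of 0.20 and 0.27 at 1 μM (adjusted p = 0.639 and 0.71, limma) and 0.29 and 0.28 at 10 μM (adjusted p = 0.50 and 0.711, limma).

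MEIS3P1, a pseudogene related to the homeobox gene MEIS3 and measured on a probe set with shared targets, rose by 2.21 ± 0.22 (adjusted p = 0.0216, limma) and 2.18 ± 0.19 (adjusted p = 0.00363). It read 3.75 and 4.22 in the clone, 6.34 and 6.05 at 1 μM and 6.17 and 6.17 at 10 μM, against 8.21 and 8.39 in MCF-10F. AOX1, aldehyde oxidase, which oxidises aldehydes including retinal, read 9.93 and 9.76 in MCF-10F, 6.04 and 6.57 in the clone, 8.69 and 8.35 at 1 μM and 7.41 and 6.88 at 10 μM. It rose at 1 μM by 2.21 ± 0.23 (adjusted p = 0.0249, limma), and its 10 μM difference of 0.85 ± 0.25 had an adjusted p of 0.105. The difference between its doses was -1.37 ± 0.25, with an unadjusted p of 0.000909 and an adjusted p of 1 by limma over all probe sets. Another measured probe set of AOX1 differed by 1.25 at 1 μM (adjusted p = 0.129, limma).

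CDH2, the mesenchymal N-cadherin, read 10.21 and 9.20 in MCF-10F, 5.45 and 5.52 in the clone, 7.34 and 7.55 at 1 μM and 7.87 and 7.85 at 10 μM. It rose at 10 μM by 2.37 ± 0.30 (adjusted p = 0.00975, limma), and the 1 μM difference of 1.96 ± 0.33 had an adjusted p of 0.054. TGFB2, the ligand transforming growth factor β2, read 8.75 and 9.49 in MCF-10F, 4.56 and 5.81 in the clone, 6.84 and 7.26 at 1 μM and 6.95 and 7.47 at 10 μM, a rise of 2.02 ± 0.44 at 10 μM (adjusted p = 0.043, limma). Both of its other measured probe sets rose at 10 μM too, by 2.48 and 1.46 (adjusted p = 0.00273 and 0.0209, limma). GASK1B, a kinase-like protein of the Golgi, rose at 10 μM by 2.21 ± 0.32 (adjusted p = 0.0135, limma) and PLAC8, a cysteine-rich protein first found in placenta, by 1.97 ± 0.41 (adjusted p = 0.0393, limma). The clone arrays of PLAC8 were 8.00 and 6.54, and its call was kept in 5 of 14 other settings. For none of these 4 genes was a difference between the doses found at an adjusted p under 0.05.

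The remaining 6 that rose are outside the rule for named genes or named there for other reasons. SLC1A1, a glutamate and cysteine transporter, HAS2 and SERPINB8, an intracellular serpin, rose at both doses, by 1.58 and 1.53, 1.33 and 0.99, and 0.93 and 0.73. TP53I3, a p53-induced oxidoreductase, COX7A1, a subunit of cytochrome c oxidase, and PLCB4, a phospholipase C, rose at 10 μM, by 1.74, 1.32 and 1.29. HAS2 had another measured probe set, which rose by 2.73 (adjusted p = 0.0234, limma) and 1.96 (adjusted p = 0.0109, limma), so that both probe sets rose at both doses. Over the 20 called members, 10 had other measured probe sets, and 3 of these 16 probe sets, those of HAS2 and TGFB2, passed in the same direction wherever the member was called. The other probe sets of CDH2 and SERPINB8 did not pass at 10 μM, with differences of 0.79 (adjusted p = 0.449, limma) and 0.06 (adjusted p = 0.925, limma).

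**Figure D4:**
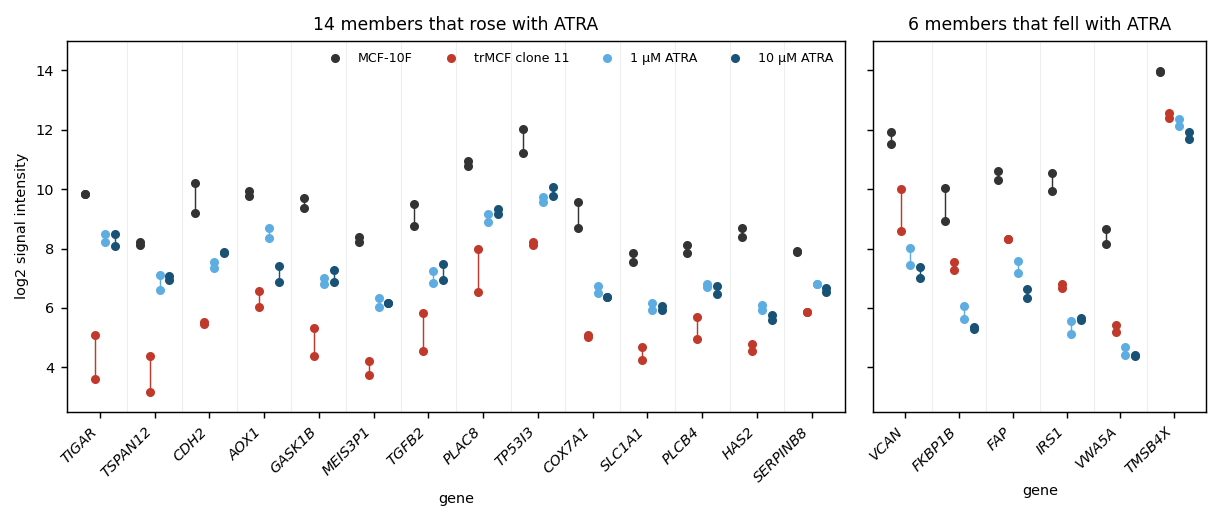
Log2 signal of the 14 members that rose and the 6 that fell against trMCF clone 11 at 1 or both ATRA doses (limma, adjusted p under 0.05), 1 point per array with a line joining the 2 arrays of a group. The ATRA points of the rising genes lie between the clone and MCF-10F, as with TIGAR from 8.08 to 8.51 between 5.09 and 9.82, and those of the falling genes lie under the clone, away from MCF-10F.

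The 6 members that fell moved farther from MCF-10F. VCAN read 11.91 and 11.53 in MCF-10F, 8.59 and 10.02 in the clone, 8.01 and 7.46 at 1 μM and 7.37 and 7.0 at 10 μM. At 10 μM VCAN fell by 2.12 (SE 0.44, adjusted p = 0.0389, limma). Its 4 other measured probe sets differed by -1.23, -2.05, -1.71 and -1.93, with adjusted p of 0.345, 0.0527, 0.0541 and 0.0994 by limma, and its call was kept in 5 of 14 other settings. FAP, a surface protease of activated stromal cells, read 10.61 and 10.29 in MCF-10F, 8.33 and 8.31 in the clone, 7.59 and 7.17 at 1 μM and 6.64 and 6.33 at 10 μM. It fell by 1.84 at 10 μM (SE 0.20, adjusted p = 0.00689, limma), and its 4 groups did not overlap. The 1 μM difference was -0.94 ± 0.20 (adjusted p = 0.0866, limma). FKBP1B, an immunophilin that binds calcium release channels, fell by 2.09 at 10 μM (SE 0.34, adjusted p = 0.0196, limma), from 7.56 and 7.28 to 5.35 and 5.30.

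IRS1 fell by 1.12 at 10 μM (SE 0.24, adjusted p = 0.0399, limma), and its difference at 1 μM was -1.39 ± 0.26 (adjusted p = 0.0656, limma). Its 2 other measured probe sets differed by -0.13 and -0.33 at 10 μM and did not pass (adjusted p = 0.878 and 0.69, limma). VWA5A, a von Willebrand domain protein, fell by 0.92 at 10 μM (SE 0.20, adjusted p = 0.046, limma), while another measured probe set of this gene held no gap between MCF-10F and the rest and differed by -0.40 (adjusted p = 0.298, limma). TMSB4X, the actin-binding peptide thymosin β4 and the brightest member, fell by 0.69 at 10 μM (SE 0.16, adjusted p = 0.0479, limma), from 12.40 and 12.56 to 11.91 and 11.68, against 13.93 and 13.98 in MCF-10F. The TMSB4X call was kept in 3 of 14 other settings, the fewest of all calls, and those of IRS1 and VWA5A in 6 of 14, while that of SERPINB8 at 1 μM was kept in 5 of 13. FAP and PRRX1 are also on the list of fibroblast markers. The summed signal of its 14 genes was 12.34 and 11.92 (log2) in MCF-10F, 12.12 and 10.99 in the clone, 10.40 and 10.33 at 1 μM and 10.28 and 10.40 at 10 μM, while COL3A1, LUM, PDGFRA, PDGFRB, LAMA2 and SFRP2 were under 6 on all arrays. The part of these markers in the result was not tested.

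The doses were set against each other over all 8 arrays. With limma, 0 members and 0% of all genes differed between 10 μM and 1 μM at an adjusted p under 0.05. At an unadjusted p under 0.05, 9 members differed, 1 higher at 10 μM (SRGN) and 8 lower (AOX1, CRACDL, FAP, IDS, PLAT, PRSS3, ST6GALNAC5 and TMSB4X), and so did 334 of all 19775 genes (1.69%). This does not show that the doses act alike: the 95% interval of the dose difference of TIGAR ran from -1.07 to 0.95, and that of FAP from -1.37 to -0.42.

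Members differed between arrays of 1 group more than other genes did in MCF-10F and in the clone. The 2 MCF-10F arrays were more than 1 apart for 32 members (23.9%), against 5.84% of genes at 6 or more. The clone arrays were more than 1 apart for 27 (20.1%), against 11.7%, with replicate 2 the higher in 18 of them. No member was more than 1 apart at either dose. The members with the widest clone difference after F3 were UPRT, an uracil phosphoribosyltransferase homologue, NHS, a regulator of actin, RGCC, a cell cycle regulator, RBM3, a cold-inducible RNA-binding protein, and PKIB, an inhibitor of protein kinase A. UPRT read 4.60 and 6.67 in the clone, NHS 4.60 and 6.49, RGCC 4.74 and 2.91, RBM3 8.09 and 9.85, and PKIB 7.07 and 5.35. A comparison of any of these with the clone carries that spread, and their ATRA differences did not pass the test.

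The 14 gene lists were written from general knowledge, with earlier results of these data known, so their member counts are a description. Of the members, 27 were on at least 1 list and 107 on none. Members made up 0.678% of all genes and 1.20% of those at 6 or more in MCF-10F. Genes left out by name met both thresholds but are not counted as members of any list. They were 2 on the mesenchymal, 2 on the TGF-β, 4 on the noncollagen matrix and 1 on the interferon list, with FN1 on more than 1 list. Counts against MCF-10F are a description, since this contrast chose the members. Over all genes, 2.64% were lower and 1.88% higher in trMCF clone 11 than in MCF-10F (limma, adjusted p under 0.05), and 0.47% were lower and 0.142% higher at 1 μM ATRA. Among mesenchymal genes, 6 of 32 were members (FAP, WNT5A, PRRX1, CDH2, TCF4 and TWIST2), and 6 of 32 were lower in the clone and 4 of 32 at 1 μM. Of 39 genes of the TGF-β response, 4 were members (FBN1, SERPINE2, VCAN and TGFB2), with 10 lower and 2 higher in the clone and 5 lower and 1 higher at 1 μM. Of 49 noncollagen matrix genes, 5 were members, with 9 lower and 2 higher in the clone and 8 lower and 0 higher at 1 μM. Of 35 proteases and inhibitors, 4 were members, with 6 lower and 1 higher in the clone and 2 lower and 1 higher at 1 μM.

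The other lists held between 0 and 4 members each. Of 57 interferon response genes, 10 were lower in the clone and 1 at 1 μM, and 1 was a member. Against the clone, 7 of those 57 rose at 1 μM, and 18 rose and 1 fell at 10 μM. The shares of all genes in that contrast were 0.971% higher at 1 μM, and 3.94% higher and 3.89% lower at 10 μM. Of 32 retinoid targets, 1 was a member, 3 rose at 1 μM and 8 at 10 μM, and 1 fell at 10 μM. Imprinted genes (25 measured), cancer-testis antigens (22) and genes of glutathione, metallothionein and detoxification (42) held 0 members. Cytokines, chemokines and growth factors held 4 of 58, though that list lacks the members CXCL6, PPBP and PF4. Adhesion receptors held 3 of 45, developmental factors 3 of 56, YAP and TEAD targets 2 of 25, and cytoskeletal genes 2 of 40.

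A feature that the rule did not use was chromosome. The X chromosome held 19 of the 134 members (14.2%) and 332 of 11175 placed genes at 6 or more in MCF-10F (2.97%). Members made up 5.72% of the X-linked genes at that level and 1.06% of the autosomal ones. Among autosomes the share was highest on chromosome 4, with 13 members of 414 genes (3.14%), and chromosomes 21 and 22 held 0. The 13 include the 6 genes of the CXC cluster, which lie at 1 locus. The X-linked members were NLGN4X, MCF2, ARMCX2, ZNF630, ASB9, MAGED1, MOSPD1, IDS, RBM3, ARMCX6, TMSB4X, NHS, EBP, UPRT, ACOT9, MAMLD1, SLC6A14, DYNLT3 and PRRG1. Their roles vary: IDS is a lysosomal sulfatase, EBP a sterol isomerase, MAGED1 an adaptor of the MAGE family, DYNLT3 a dynein light chain and SLC6A14 an amino acid transporter.

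X-linked genes as a whole were lower on the arrays of the clone. The median difference of these X-linked genes from their MCF-10F mean was -0.56 and -0.47 on the clone arrays, -0.51 and -0.50 at 1 μM and -0.54 and -0.50 at 10 μM. The autosomal median, at the same level in MCF-10F, was between -0.06 and 0.04 on these 6 arrays. Both MCF-10F arrays exceeded all 6 others for 176 of 332 X-linked genes (53.0%) and for 1262 of 10843 autosomal genes (11.6%), and the reverse held for 5 (1.51%) and 1270 (11.7%). Between the clone and MCF-10F the median difference was -0.55 for X-linked and -0.02 for autosomal genes, and it was -0.51 at 1 μM and -0.53 at 10 μM for X-linked genes. The autosomal value pools chromosomes that differed. In the clone, at 1 μM and at 10 μM the median was -0.31, -0.19 and -0.22 on chromosome 4 and -0.31, -0.22 and -0.21 on chromosome 14. Others went the other way, as chromosome 7 with 0.12, 0.24 and 0.21. Without trMCF clone 11 replicate 1 the X-linked median was -0.47 and without replicate 2 it was -0.56, and with no minimum level it was -0.0573. Neighbouring genes share their chromosome copy and are not independent, and no test was made.

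**Figure D5:**
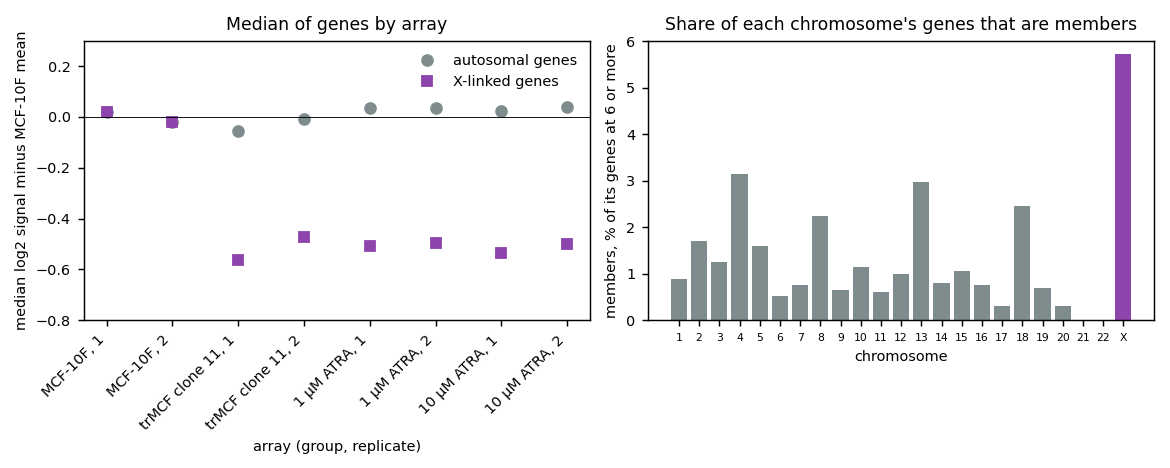
Left, median log2 signal minus the MCF-10F mean over 332 X-linked and 10843 autosomal genes on each array. Right, members as a percentage of each chromosome's genes at a mean log2 of 6 or more in MCF-10F. X-linked medians lie between -0.56 and -0.47 on all 6 arrays of the clone, with medians of the pooled autosomes near 0, and the X chromosome has the tallest bar at 5.72%.

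Each member stands on its brightest probe set. Of the members, 86 had another single-gene probe set, 166 in all, and 78 of these, from 52 members, had an MCF-10F mean of 6 or more. Among the 78, 71 were higher on both MCF-10F arrays than on all others and 46 held a gap of 1 or more. The 7 that were not came from 6 members: SORBS2, an actin adaptor, with 2, and SERPINB8, PLCB4, PAPSS2, which makes the sulfate donor PAPS, IDS and VWA5A. Each of these genes met the rule on its brightest probe set and failed it on another. Further probe sets of SORBS2 (gaps of 1.42 and 1.39) and PAPSS2 (1.12) also met it. On the 2 SORBS2 probe sets without the gap, ATRA arrays read from 6.39 to 6.98 and clone arrays from 4.71 to 5.78. The MCF-10F arrays read 6.05 and 6.43 on 1 of them and 6.46 and 7.83 on the other. The probe set name marked shared targets for 50 members, 39 with the suffix s and 11 with x.

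The 3 members nearest to the threshold were FLRT2, an adhesion protein that binds unc5 receptors, SLFN12, a Schlafen family gene, and PRRG1, a membrane protein with a Gla domain, each with a gap of 1.02. Just outside were PGCKA1 with a gap of 0.996, FGF2, fibroblast growth factor 2, with 0.993, and EGR3, an early growth response factor, with 0.9925. FGF2 read 9.39 and 9.13 in MCF-10F, 6.75 and 8.14 in the clone, 7.90 and 7.60 at 1 μM and 7.25 and 6.83 at 10 μM, much like a member.

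Promoter windows were available for 105 members. Their median count of CpG was 21 in 300 bases, against 26 over the 9186 genes at 6 or more in MCF-10F with a window, and their median GC content was 60.0% against 65.3%. Windows with under 10 CpG made up 30.5% of the members, 11.6% of genes at that level and 26.7% of all 15384. TATAAA, the TATA box, was found in 19% of member windows, 5.66% of windows at that level and 8.86% of all. TGANTCA was found in 10.5%, 4.50% and 5.79%, and GGAATG, the TEAD motif, in 16.2%, 10.6% and 12%. CACCTG, an E-box, was found in 20.0%, 18.3% and 19.6%, CCGCCC, a GC box, in 52.4%, 70.3% and 58.8%, and TGACGTCA, the cyclic AMP response element, in 0, 3.29% and 2.65%. Both strands were searched, and a match is a description of the letters only. The windows of SPRR3, a cornified envelope protein, FPR1, a formyl peptide receptor of phagocytes, and TNFAIP6 were among the 11 that held TGANTCA.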

How the data were processed

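The deposited values are signal intensities on a linear scale, 1 for each of 54675 probe sets and 8 arrays, which the authors had summarised and scaled between arrays (array medians 47.3 to 48.8). MAS 5.0 (global scaling) and Iterative Plier are both named in the methods of the paper; the one behind these values was not given in the sources used here. Raw probe intensities and detection calls were not used here. The log2 of each intensity was taken without further scaling or floor. After 62 controls were left out, 54613 probe sets were tested, and 41091 name 1 gene, 1801 several and 11721 none in the annotation used. A gene was read from its probe set with the highest mean log2 signal.

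Groups were compared with limma 3.58.1 under R 4.3.3 (lmFit, eBayes), with 1 mean per group and no covariate: 1 μM ATRA in a fit of 6 arrays without the 10 μM dose, as the paper grouped them, and 10 μM and the dose difference in a fit of all 8. P-values were adjusted over all probe sets by Benjamini-Hochberg. The script was checked on simulated data with known changes. With 2 arrays in a group, their number limits the precision of every value.

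The members, gene lists and rule for named genes were chosen with earlier results of these data known. Named genes were the 12 largest gaps, up to 8 called members in each direction, up to 4 members of each list, those next to the threshold, those with a second probe set without the gap, those with the widest clone difference, and members that are neighbours in RefSeq; other genes named were chosen after their values were seen. Promoter windows were 1 for each gene, at its 5′-most listed start. Alternatives were quantile normalization, a floor of 16, other probe set choices, other thresholds, other fits and each array left out; those for X-linked genes were added after seeing the data. Figures were drawn with matplotlib 3.10.9.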

Additional observations from a re-analysis of the deposited data

How the results depend on the processing

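The number of members was 134 and lay between 93 and 144 under other normalizations, floors and probe set choices. It was 33 at a gap of 2 and 334 at 0.5. With each array left out it was 134 to 293, the highest being without MCF-10F replicate 2 (241 without replicate 1). Leaving out an array can only keep or widen the gap of a probe set, so the direction of that range was largely fixed in advance. With signals under 16 set to 16, the members that rose numbered 1 at 1 μM and 6 at 10 μM, and 1 fell at 10 μM; the cause was not tested. With only the 4 arrays compared, 7 rose and 2 fell at 10 μM. With all 8 arrays in 1 fit, 15 rose and 3 fell at 1 μM. With a 2-fold threshold and p under 0.05 unadjusted, 18 rose and 5 fell at 1 μM, and 3 were lower at 10 μM than at 1 μM. With each array left out, risers numbered 0 to 23 and fallers 0 to 2 at 1 μM, and 0 to 26 and 0 to 5 at 10 μM; the lowest were without an ATRA array of that dose, and without either 1 μM array 7 rose and 1 fell at 10 μM. The replicate numbers did not pair the arrays by the correlation of their deviations (-0.06 to 0.35), and with a replicate block 5 rose and 0 fell at 1 μM and 14 rose and 3 fell at 10 μM. The median change at 10 μM was 0.20 with only probe sets without shared-target suffixes, and with each array left out it was -0.01 to 0.11 at 10 μM and 0.07 to 0.16 at 1 μM. The X-linked median of -0.55 was -0.0573 with no minimum level (the genes added are under 6 in MCF-10F), -0.49 with the minimum set on all 8 arrays, and -0.56 to -0.47 with each array left out. Single calls kept their direction in every setting run and 25 of 26 stayed called under quantile normalization, 7 of 26 with the floor. Dim signals near 16 limit the size of the largest losses.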

Other observations

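The 2 MCF-10F arrays were more than 2 apart on the log2 scale for 9 members. Replicate 2 was the higher for CXCL6 (4.78 and 10.09), SLC6A14 (9.53 and 12.75), PTGS2, the inducible cyclooxygenase (7.78 and 10.61), CXCL8 (10.34 and 12.79), GCNT3, a mucin glycosyltransferase (7.40 and 9.82), and AGR2, a secretory disulfide isomerase (9.61 and 11.86). Replicate 1 was the higher for PCDH9 (8.65 and 6.17), MAP1B (8.40 and 6.23) and CCBE1 (8.65 and 6.52). The level of these genes in MCF-10F, and with it the size of their loss, depends on the array.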
